A study of Homo sapiens with 8 samples.

Results

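The ZNF genes, which encode zinc finger proteins numbered in the order in which they were named, were followed in cancer stem cells (CSCs) with scramble, CDH2 or Cx43 shRNA. Members were chosen by name and by level: the name had to be ZNF followed by digits, with or without a final letter, and the mean over the 3 scramble libraries had to be at least 3 on the log2(CPM + 1) scale, where CPM is reads of a gene scaled to a library of equal size. ZNF699 was added because of its rise in the knockdowns, and it also met the floor. This gave 300 members among 417 ZNF genes and 12939 genes in all. The lowest members were ZNF10, ZNF582 and ZNF488, with scramble means of 3.009, 3.013 and 3.021, and the ZNF genes closest under the floor were ZNF484, ZNF362 and ZNF239, with 2.997, 2.985 and 2.974. The floor itself is a measured level in scramble, so the levels of the members against other genes are a description. ZNF699 was left out of every test and of every median and count of changes, which leaves 299 members there. Summaries of level per kilobase and of length include it.

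The cells were CSCs of MDA-MB-231, an established mesenchymal, triple-negative breast cancer line. Every group carried a stable GFP reporter driven by the Oct4a promoter and a stable red fluorescent shRNA vector kept under drug selection. The vector held a scramble sequence in 3 libraries, an shRNA to CDH2 (N-cadherin, a cell adhesion protein) in 3 libraries, and an shRNA to Cx43 (connexin 43, a gap junction protein) in 2 libraries. Cells bright for both GFP and the red protein were sorted and left overnight in culture before total RNA was taken and ribosomal RNA removed. Each knockdown is a transfected line kept under selection, the CDH2 shRNA being picked among several clones, so what belongs to a knockdown and what belongs to its line cannot be told apart. The libraries of a group share a replicate number with the other groups, and nothing in the labels says that they came from separate cultures, so the p-values measure the spread between these libraries, which may be technical.

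Most ZNF genes encode proteins with runs of C2H2 fingers, in which 2 cysteines and 2 histidines hold a zinc ion and each finger can contact a few bases of DNA. The largest human class also carries a KRAB domain, which recruits the corepressor TRIM28 (KAP1) and, through it, the histone methyltransferase SETDB1 and HP1 proteins, so that bound DNA is packed into silent chromatin. Many of these genes arose by tandem duplication, lie in clusters on chromosome 19 and bind retroelements. The name is wider than the family: some ZNF genes encode LIM, RNA-binding or ribosome-associated proteins.

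The values of the files are log2(CPM + 1) after normalization by the authors, and without counts the depth of the libraries is unknown. The markers of the mesenchymal line were all listed, with scramble means from 6.72 to 9.72 for 7 of 7 genes such as VIM and CD44, while 1 of 7 luminal markers, 2 of 6 stromal markers and 0 of 4 blood markers were listed. Neither targeted gene (CDH2, and GJA1 for Cx43) was analysed here, which leaves the 2 knockdowns without a check on their own transcripts. POU5F1, the gene of the Oct4a reporter, had means of 3.83 ± 0.012, 3.77 ± 0.080 and 3.65 ± 0.11 in scramble, CDH2 and Cx43 knockdown. The median over all genes lay between 4.69 and 4.72 in the 8 libraries.

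The members were genes of modest level. Per kilobase of transcript the median member had a scramble level of 3.86 CPM, against 8.15 CPM for all genes and 10.2 CPM for genes that pass the same floor. On the scale of the files, which does not allow for length, the members with the most reads in scramble were ZNF37A with 6.87 ± 0.031 (SD, n = 3), ZNF207, which binds spindle microtubules and the checkpoint protein BUB3, with 6.77 ± 0.031, ZNF185, a LIM domain protein, with 6.64 ± 0.091, ZNF106, an RNA-binding protein, with 6.60 ± 0.026, and ZNF638, a nuclear protein that binds nucleic acids, with 6.56 ± 0.13. The scramble libraries of ZNF185, ZNF106 and ZNF638 overlapped one another. Per length the order was another: ZNF622, a maturation factor of the large ribosomal subunit, led with 47.2 CPM per kilobase, and ZNF37A ranked 21 with 14.3. Of these leading genes by reads, ZNF37A alone carries the KRAB core. Of the 300 members, ZNF699 included, 299 had a match in GENCODE, and 144 of these (48.2%) lay on chromosome 19, against 7.08% of all matched genes. The translated transcripts of 294 of the 300 members held a median of 11 C2H2 fingers and up to 36, and 151 held the core of a KRAB A-box, of which 109 lay on chromosome 19. ZNF703, ZNF185, ZNF330, ZNF503 and ZNF839 held no finger of the classical spacing.

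In CDH2 knockdown many more ZNF members rose than fell, most of them by little. Among the 299 members, 54 were higher and 5 lower with an adjusted p under 0.05 (limma, Benjamini-Hochberg over all genes), which is 18.1% and 1.67% of the members, against 7.29% and 6.98% of all genes. The 54 log2 fold changes ran from 0.30 to 1.00, and the 5 members that fell were ZNF219 with -0.53, ZNF703 with -0.50, ZNF747 with -0.41, ZNF385A with -0.40 and ZNF410 with -0.34. The median log2 fold change was 0.21, with quartiles of 0.017 and 0.36, where all genes had 0.007 with quartiles of -0.21 and 0.22, and 227 members (75.9%) were above 0 against 51.0% of all genes. The 3 pairs of libraries with the same replicate number gave member medians of 0.21, 0.22 and 0.17, with all-gene medians of 0.0025, 0.0016 and 0.016. In 166 members (55.5%) every CDH2 knockdown library was above every scramble library, against 27.1% of all genes, and in 28 (9.36%) every one was below, against 24.8%. Summed over the 299 members without ZNF699, the linear CPM made up between 0.955% and 1.01% of the listed CPM in scramble, between 0.976% and 0.999% in Cx43 knockdown and between 1.12% and 1.16% in CDH2 knockdown, so the CDH2 libraries did not overlap the other libraries. The adjusted p rests on few libraries. Without CDH2 library 1 or 2, Cx43 library 1 or 2 or scramble library 1, 0 members were higher or lower. With the 2 groups alone in the fit there were 0 as well. Over all genes, too, 0 were higher and 0 lower in these fits, except without scramble library 1, where 6 were higher and 4 lower. These counts of 0 thus say nothing about the members in particular. Without scramble library 2 there were 37 members higher (12.4%, against 5.77% of all genes) and 1 lower. Without CDH2 library 3 or scramble library 3 there were 118 higher (39.5%, against 20.9% of all genes) and 20 lower (6.69%, against 20.1%). The member median lay between 0.18 and 0.22 in these fits with 1 library left out. Not all of them can differ: leaving out a Cx43 library does not move this estimate, which stayed at 0.21. Leaving out CDH2 library 3 or scramble library 3 gave the same result, since replicate number 3 holds no other library.

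The floor was applied to scramble, which keeps out genes that rise from a low level. Over the 416 ZNF genes other than ZNF699, 69 rose and 7 fell, at a median of 0.21. With the floor set on the mean of all 8 libraries the median of 308 genes was 0.22. The genes of the series that pass the same floor had 739 higher and 714 lower among 10540, with a median of 0.010. In RNA of many cells, a change in the share of some cells and a change in the RNA per cell cannot be told apart.

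**Figure D1:**
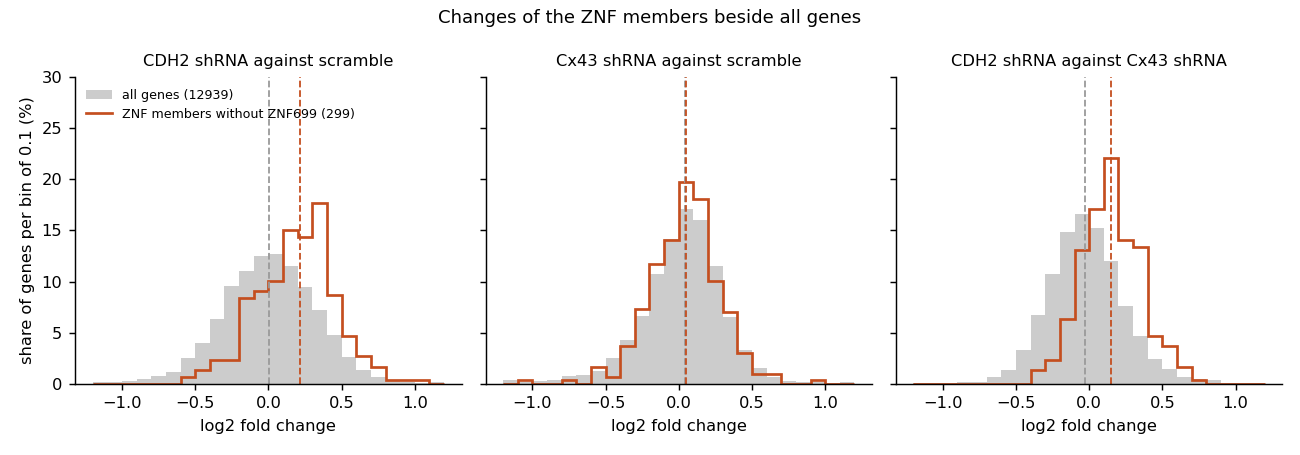
Share of genes (%) in bins of 0.1 on the x axis, the log2 fold change, for all 12939 genes (grey) and the 299 ZNF members without ZNF699 (orange outline) in the 3 comparisons, with dashed lines at the medians and values beyond ±1.2 put in the end bins. The members sit to the right of all genes in CDH2 shRNA against scramble (0.21 against 0.007) and in CDH2 shRNA against Cx43 shRNA (0.15 against -0.030), and over them in Cx43 shRNA against scramble (0.048 against 0.043).

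Large changes were few. A gene was called in CDH2 knockdown with an adjusted p below 0.05 together with a log2 fold change of at least 0.73 in size, and 5 of 299 members were called higher (1.67%, against 0.866% of all genes) and 0 lower (against 1.20%). At an unadjusted p under 0.05, 131 were higher and 16 lower (43.8% and 5.35%, against 19.5% and 18.0% of all genes). ZNF724, ZNF587, ZNF430, ZNF551 and ZNF347 are the 5 genes. All of them lie on chromosome 19, hold 11 to 17 fingers and carry the KRAB core. ZNF699, which was added for its rise, is of the same kind, with 14 fingers and the KRAB core at chr19:9291140-9309838 on the minus strand (hg38). As with the adjusted p alone, 0 were called without CDH2 library 1 or 2, Cx43 library 1 or 2 or scramble library 1, or with the 2 groups alone, 10 without CDH2 library 3 or scramble library 3, and 5 without scramble library 2, of which 1, ZNF724, was shared. In the fits that gave 0, 0 of all genes passed the adjusted p that a call needs, except without scramble library 1, where 6 higher and 4 lower did. For the fits that gave 10 and 5 the calls over all genes were not counted.

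ZNF699 was at 5.05, 4.96 and 5.15 in the scramble libraries, 6.50, 6.57 and 6.39 in the CDH2 knockdown libraries and 6.22 and 6.24 in the Cx43 knockdown libraries. The groups did not overlap, and the differences from the scramble mean were 1.44 (SE 0.094) in CDH2 and 1.18 (SE 0.11) in Cx43 knockdown, given without a test because the gene was chosen for them. Per kilobase its scramble level was 4.77 CPM, rank 117 of 299 members with a length. An antisense lncRNA shares 405 of its exonic bases, and whether the counting used strand is not given in the sources used here.

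ZNF724 was at 3.16, 3.07 and 3.26 in the scramble libraries, 4.19, 4.23 and 4.07 in the CDH2 knockdown libraries and 3.76 and 3.82 in the Cx43 knockdown libraries. The gene, at chr19:23221599-23250394 on the minus strand, rose by 1.00 (SE 0.094, adjusted p = 0.0160) in CDH2 knockdown, the largest log2 fold change among the 299 members. Its value is uncertain as to source, since 51.9% of the 75-base windows of its transcript also occur in an overlapping coding gene without a symbol on the same strand. ZNF430 was at 3.26, 3.13 and 3.39 in the scramble libraries, 4.06, 4.18 and 3.92 in the CDH2 knockdown libraries and 3.67 and 3.67 in the Cx43 knockdown libraries. This gene, at chr19:21020634-21060050 on the plus strand, shares 0.525% of its windows and rose by 0.79 (SE 0.11, adjusted p = 0.0214).

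ZNF551 was at 3.72, 3.64 and 3.81 in the scramble libraries, 4.46, 4.58 and 4.39 in the CDH2 knockdown libraries and 4.36 and 4.32 in the Cx43 knockdown libraries. At chr19:57681969-57717301, it rose by 0.75 (SE 0.094, adjusted p = 0.0199), with tight groups that did not overlap. ZNF587 was at 4.04, 3.79 and 4.27 in the scramble libraries, 5.07, 5.05 and 4.70 in the CDH2 knockdown libraries and 4.41 and 4.68 in the Cx43 knockdown libraries. The spread of ZNF587 within each group was wider, and its change was 0.91 (SE 0.18, adjusted p = 0.0344). ZNF587, at chr19:57849859-57865117, is a gene of primate retroelement control whose exons overlap ZNF814 on the opposite strand over 2443 bases, and ZNF814 itself had 0.13 (SE 0.14, adjusted p = 0.518).

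ZNF347 was at 4.17, 3.95 and 4.40 in the scramble libraries, 4.96, 5.10 and 4.69 in the CDH2 knockdown libraries and 4.62 and 4.70 in the Cx43 knockdown libraries. The change of ZNF347, at chr19:53124072-53159075, was 0.74 (SE 0.16, adjusted p = 0.0406), and in replicate number 3 the CDH2 and scramble libraries were closest. The Cx43 knockdown means of ZNF724, ZNF587, ZNF430, ZNF551 and ZNF347 all lay between the scramble and the CDH2 means, with log2 fold changes against scramble from 0.41 to 0.63 and adjusted p from 0.0641 to 0.232, so none was called there. The 2 comparisons share the scramble libraries.

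**Figure D2:**
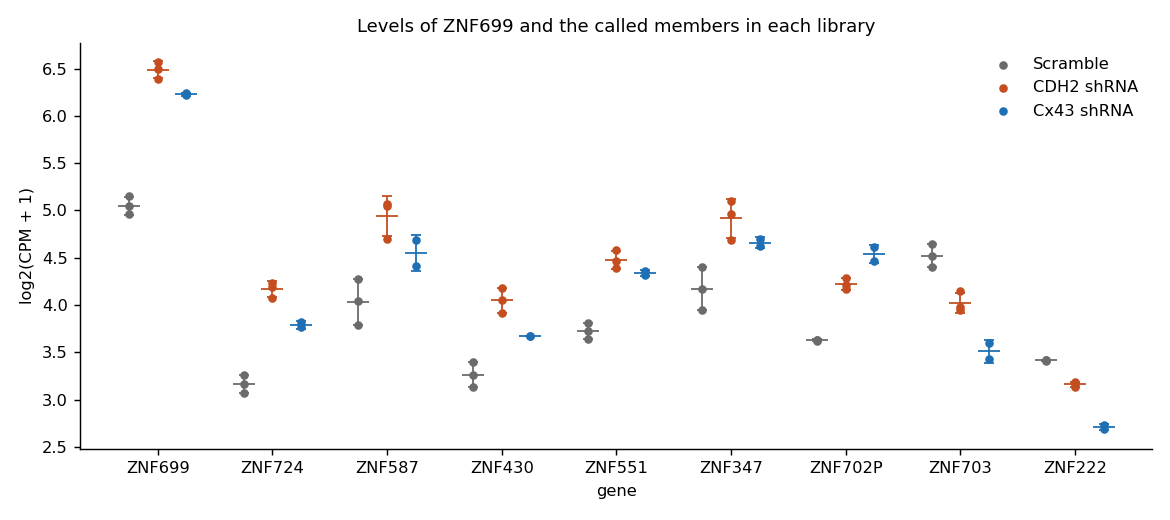
Levels in log2(CPM + 1) (y axis) of ZNF699 and the 8 members called in a knockdown (x axis), with a point for each library, a dash for the group mean and bars for ± 1 SD. ZNF699 stands at 4.96 to 5.15 in scramble and above 6 in every knockdown library, while ZNF703 and ZNF222 are lowest in Cx43 shRNA.

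The bases before the start of ZNF699 and of the related genes ZNF724 and ZNF430 are shown because ZNF699 moved most and the other genes share much of theirs. Each run is the 250 bases before the RefSeq start on GRCh38.p14, 5′ to 3′ on the gene's strand, and capitals mark the CCAAT box, the GC box GGGCGG or the ETS-type letters CCGGAAG on either strand, of which neighbouring ones run together. The positions are chr19:9309839-9310088 and chr19:23250395-23250644 on the minus strand and chr19:21020407-21020656 on the plus strand.
ZNF699: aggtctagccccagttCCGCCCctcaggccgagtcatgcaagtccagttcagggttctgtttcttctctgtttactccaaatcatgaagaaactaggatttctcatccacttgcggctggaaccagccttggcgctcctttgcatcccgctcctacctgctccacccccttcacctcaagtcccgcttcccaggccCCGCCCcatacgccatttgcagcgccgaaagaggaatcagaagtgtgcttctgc
ZNF724: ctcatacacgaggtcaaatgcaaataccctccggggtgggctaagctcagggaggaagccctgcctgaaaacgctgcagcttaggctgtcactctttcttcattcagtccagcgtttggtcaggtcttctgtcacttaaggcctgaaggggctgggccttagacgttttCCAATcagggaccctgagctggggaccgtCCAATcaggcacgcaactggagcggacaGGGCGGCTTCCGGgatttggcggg
ZNF430: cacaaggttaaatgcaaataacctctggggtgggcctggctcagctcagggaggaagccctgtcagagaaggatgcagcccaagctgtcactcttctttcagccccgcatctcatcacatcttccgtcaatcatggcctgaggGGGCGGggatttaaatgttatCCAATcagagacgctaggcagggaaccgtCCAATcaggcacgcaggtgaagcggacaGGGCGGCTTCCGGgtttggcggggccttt
In a global alignment the windows of ZNF724 and ZNF430 were identical at 199 bases (79.6%), and both ended with 2 CCAAT boxes followed by a GC box next to an ETS-type site. The other 20 pairs among the 7 windows read for called members and ZNF699 had 51.6% to 60.0% identity. ZNF699 had 2 GC boxes and neither of the other motifs in its window.

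Promoters of 259 members were matched in RefSeq. The ETS-type letters CCGGAAG occurred on either strand within 250 bases in 32.4% of them, against 17.2% of 9276 genes of the series, the CCAAT box in 42.1% against 35.6%, the GC box GGGCGG in 59.5% against 69.0%, and TATAAA in 2.70% against 4.78%. The letters ACTACAATT, part of the site of ZNF143, were in 7 member windows, 2.70% against 0.668%. Members with the ETS-type letters had a median change of 0.19 in CDH2 knockdown and those without 0.24, and for the GC box the medians were 0.20 and 0.27. Both medians were above 0 with and without each of these motifs, and letter matches are no measure of binding.

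In CDH2 knockdown the KRAB class had the larger share of members that rose. Of 150 members with the KRAB core, 37 were higher and 1 was lower with an adjusted p under 0.05, and their median was 0.25. Over all genes 7.29% were higher and 6.98% lower. Of 143 translated members without it, 16 were higher and 4 lower, and the median was 0.15. By place, chromosome 19 had 37 higher and 0 lower among 143 members with a median of 0.25, and the other chromosomes 17 and 5 among 155 with 0.17. Both features together gave the highest median, 0.27 over 108 members, against 0.13 for 33 chromosome 19 members without the core, 0.17 for 42 KRAB members elsewhere and 0.17 for the remaining 110. With the number of fingers the median went from 0.082 for 59 members with 0 to 5 to 0.22 for 86 with 6 to 10, 0.23 for 92 with 11 to 15 and 0.24 for 56 with 16 or more. These groups also differ in base composition: the median GC content of the transcripts was 52.3% with 0 to 5 fingers and 42.2% with 16 or more, 42.1% with the KRAB core and 47.9% without. Median transcript lengths differed too, with 3366, 4640, 4074 and 4612.5 bases along the finger groups, and 4271 with the KRAB core and 4399 without. Chromosome 19 members had 4414 bases with the core and 3501 without, KRAB members elsewhere 3486 and the remaining members 4607.5. No test of the differences between these groups was made.

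On chromosome 19, members less than 1 Mb apart were joined into 16 clusters, of which 8 hold 4 or more members and 132 members together, or 131 without ZNF699. The median change in CDH2 knockdown was positive in 7 of these 8 and above the Cx43 median in 8 of 8. The cluster from ZNF101 to ZNF43 (chr19:19668796-21852125) stood highest, with 9 of 9 members above 0 and a median of 0.53, and its Cx43 median was 0.11. In this cluster 7 members rose, where 7.29% of all genes did. Besides ZNF430 its members that rose were ZNF486 with 0.61 (SE 0.079, adjusted p = 0.0204), ZNF714 with 0.68 (SE 0.11, adjusted p = 0.0257), ZNF100, ZNF431, ZNF43 and ZNF85, while ZNF101 had 0.13 (SE 0.14, adjusted p = 0.517). ZNF93, which represses L1 retroelements, had 0.50 (SE 0.15, adjusted p = 0.0701). The cluster from ZNF576 to ZNF180 was at the other end, with a median of -0.010 in CDH2 and -0.11 in Cx43 knockdown over 12 members, of which 6 and 3 were above 0. The transcripts of the ZNF101 to ZNF43 cluster had a median GC content of 37.2% and those of the ZNF576 to ZNF180 cluster 43.1%, with median lengths of 4642 and 3488 bases. The cluster order is a description, and neighbours in it overlap in their members' values.

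**Figure D3:**
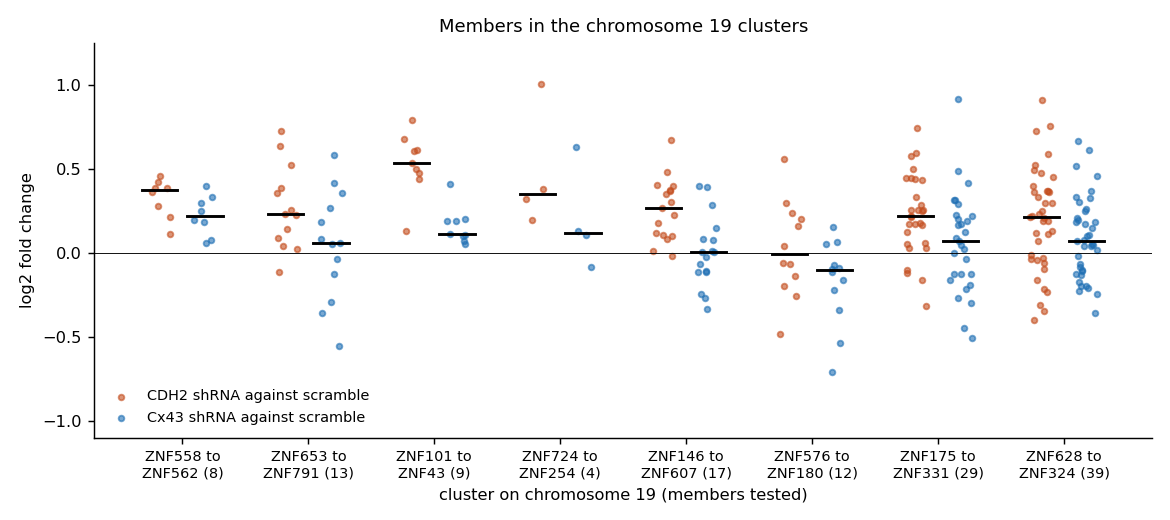
Log2 fold change (y axis) of each member of the 8 chromosome 19 clusters with 4 or more members (x axis, in genome order, number of members tested in brackets), in CDH2 shRNA against scramble (orange) and Cx43 shRNA against scramble (blue), with black bars at the medians. All 9 members of the ZNF101 to ZNF43 cluster are above 0 in CDH2 shRNA, and the ZNF576 to ZNF180 cluster lies around 0.

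In Cx43 knockdown the members moved about as all genes did. Their median log2 fold change was 0.048, with quartiles of -0.10 and 0.19, against 0.043 for all genes, and 180 members (60.2%) were above 0 against 57.6%. At an adjusted p below 0.05 and a size of at least 1.5-fold, 1 member was higher (0.334%, against 0.402% of all genes) and 2 were lower (0.669%, against 0.781%). Past the adjusted p alone there was 1 more, ZNF799, with 0.58 (SE 0.083, adjusted p = 0.0445), which makes 2 higher and 2 lower, where 0.417% and 0.788% of all genes were. The pairs gave member medians of 0.043 and 0.079, and all-gene medians of 0.056 and 0.024. The KRAB class and the other members had medians of 0.051 and 0.039. Of the 3 calls, 0 were left without CDH2 library 1 or 2, Cx43 library 1 or 2 or scramble library 1, while 5 members were called without scramble library 2 and 9 without CDH2 library 3 or scramble library 3, these 3 among them each time. The share of all genes called was not counted in these fits.

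ZNF703 was at 4.52, 4.65 and 4.40 in the scramble libraries, 3.94, 3.98 and 4.14 in the CDH2 knockdown libraries and 3.59 and 3.42 in the Cx43 knockdown libraries. ZNF703, a cofactor without classical fingers that is amplified in luminal breast cancer, fell by 1.01 on the log2 scale (SE 0.13, adjusted p = 0.0375) in Cx43 knockdown, and in CDH2 knockdown it had -0.50 (SE 0.11, adjusted p = 0.0418), which is past the adjusted p but short of the fold. ZNF222 was at 3.42, 3.42 and 3.40 in the scramble libraries, 3.18, 3.13 and 3.17 in the CDH2 knockdown libraries and 2.68 and 2.73 in the Cx43 knockdown libraries. ZNF222, a KRAB gene of 8 fingers at chr19:44025342-44033110 on the plus strand, fell by 0.71 on the log2 scale (SE 0.085, adjusted p = 0.0370). For both genes the groups did not overlap, with CDH2 knockdown between scramble and Cx43 knockdown, and ZNF222 was below the floor of 3 in Cx43 knockdown.

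ZNF702P was at 3.63, 3.61 and 3.63 in the scramble libraries, 4.29, 4.16 and 4.22 in the CDH2 knockdown libraries and 4.47 and 4.61 in the Cx43 knockdown libraries. ZNF702P, a transcribed pseudogene at chr19:52966896-53037898 on the minus strand, was the called rise, with 0.91 (SE 0.10, adjusted p = 0.0349), and in CDH2 knockdown it had 0.60 (SE 0.083, adjusted p = 0.0209), again past the adjusted p and short of the fold. It shares 9.57% of its windows with other transcripts.

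The knockdowns were then set against each other, where the scramble libraries serve only the replicate block and the estimate of the spread. The members were higher in CDH2 than in Cx43 knockdown, with a median of 0.15 where all genes had -0.030, and 230 members (76.9%) were above 0 against 45.2% of all genes. Pairs of replicate numbers 1 and 2 gave 0.17 and 0.16. In 153 members (51.2%) all CDH2 libraries were above all Cx43 libraries, against 21.8% of all genes, and in 22 (7.36%) all were below, against 29.1%. No gene at all was called in this comparison by limma (0% higher and 0% lower), so no single member passed the test of a difference between the knockdowns. At an unadjusted p under 0.05, 72 members were higher and 6 lower (24.1% and 2.01%, against 8.65% and 11.4% of all genes). Without the replicate block 6 members were called, and 7 without CDH2 library 3, scramble library 2 or scramble library 3. Calls over all genes were not counted in these fits, so nothing about the members in particular can be read from them.

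The 5 members with the smallest unadjusted p were ZNF570, ZNF432, ZNF844, ZNF92 and ZNF45, all KRAB genes and all higher in CDH2 knockdown. ZNF45 was at 5.38, 5.45 and 5.34 in the scramble libraries, 5.81, 6.04 and 5.99 in the CDH2 knockdown libraries and 5.32 and 5.02 in the Cx43 knockdown libraries. Its difference between the knockdowns was 0.78 (SE 0.14, adjusted p = 0.124). ZNF570 was at 4.08, 4.09 and 4.06 in the scramble libraries, 4.43, 4.31 and 4.39 in the CDH2 knockdown libraries and 3.68 and 3.80 in the Cx43 knockdown libraries. Here the difference was 0.64 (SE 0.095, adjusted p = 0.115), with CDH2 knockdown above and Cx43 knockdown below scramble in every library. ZNF432, which has been tied to the repair of DNA damage, had 0.61 (SE 0.094, adjusted p = 0.115), ZNF844 0.65 (SE 0.10, adjusted p = 0.115) and ZNF92 0.50 (SE 0.086, adjusted p = 0.121). For ZNF844, 44.7% of the windows of its transcript also occur in other annotated transcripts.

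Transcript length went with the change in CDH2 knockdown, among the members and among all genes. The members, ZNF699 included, have long transcripts: the median is 4312 bases (quartiles 3000 and 5858.5), against 3228 bases over all genes, and 69.9% of the members are longer than the median gene. From the shortest to the longest of 5 equal bins of all genes by length, the median change of the genes that are no ZNF ran through -0.22, -0.093, 0.014, 0.12 and 0.22. For the members of the same bins it ran through -0.22 (9 members), -0.030 (42), 0.16 (76), 0.26 (93) and 0.32 (78). In the 3 longest bins the members were above the other genes of the bin by 0.15, 0.14 and 0.11, in the next shorter bin by 0.064, and in the shortest bin, which holds few members, both medians were -0.22. Members that rose numbered 0, 3, 10, 24 and 17 along the bins, and members that fell 0, 2, 3, 0 and 0. Other genes that rose or fell were not counted by bin, so these counts have no share beside them. From the shortest to the longest bin the share above 0 went from 20.6% to 77.2% for the other genes and from 11.1% to 91.0% for the members.

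Across the 298 members with a length, Spearman's rho between length and change was 0.41 in CDH2 and 0.20 in Cx43 knockdown. The value in Cx43 knockdown was -0.0087 in the fit without scramble library 2, and -0.041 with coding length. The Cx43 pairs of replicate numbers 1 and 2 gave 0.21 and 0.27 for the members, and 0.11 and 0.31 over all genes. In the fit of all libraries, rho over all genes was 0.49 in CDH2 and 0.12 in Cx43 knockdown. These are correlations across genes of the same libraries, which share the values of a library and are no replicates, so they carry no p. In CDH2 knockdown the 3′ UTR of the members went with the change more closely (rho 0.37) than the coding part (rho 0.21). Over all genes the order was the reverse, with 0.38 for the 3′ UTR and 0.44 for the coding part. GC content had a rho of -0.46 in the members, against -0.36 over all genes. The scramble level did not go with it (rho -0.056).

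**Figure D4:**
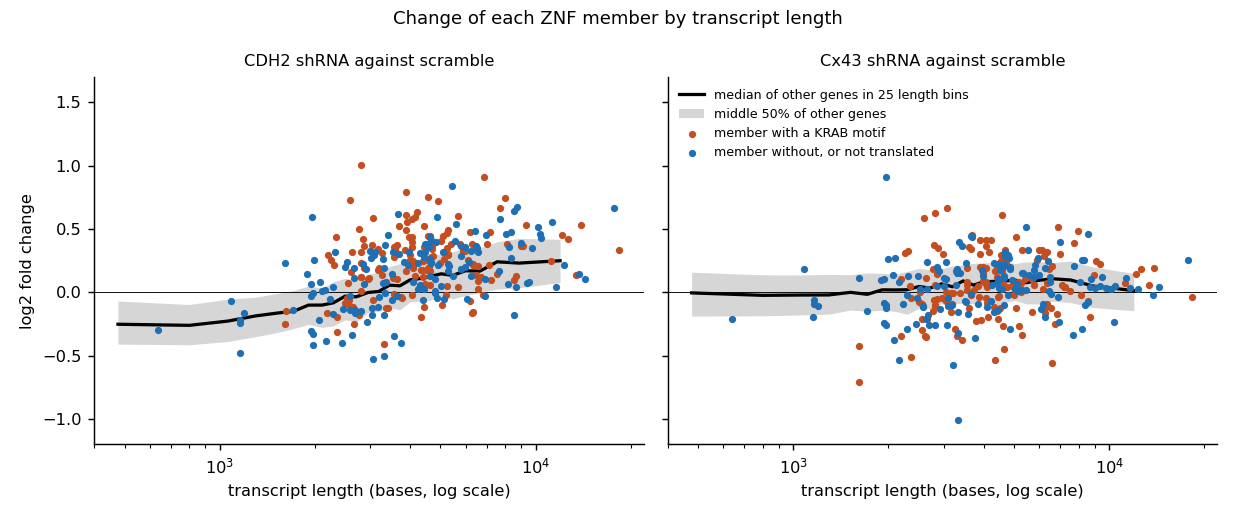
Log2 fold change (y axis) of each member against the length of its transcript in bases (x axis, log scale) in the 2 knockdowns, with members with a KRAB core in orange and the others in blue, and the median (black line) and middle 50% (grey) of the other genes in 25 length bins. In CDH2 shRNA the other genes climb with length, as the members do (rho 0.41), while in Cx43 shRNA rho is 0.20 for the members and -0.0087 without scramble library 2.

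The libraries did not agree on the length relation. In CDH2 knockdown the rho of the members was 0.38 and 0.49 for replicate numbers 1 and 2 and 0.068 for replicate number 3, and over all genes 0.50, 0.61 and 0.035. In replicate number 3 the members had a median change of 0.17, with 220 of 299 members above 0. Length and GC content were then taken out of each library by a smooth fit over all genes, together with the replicate block. The median of the members in CDH2 knockdown went from 0.21 to 0.10, with 66.2% above 0, against 0.0047 for all genes, and 24 members were higher and 6 lower at an adjusted p under 0.05, which is 8.03% and 2.01% of the members, against 6.34% and 6.27% of all genes. The share of members that rose was thus near that of all genes after the correction. In CDH2 against Cx43 knockdown the median of the members went from 0.15 to 0.10, against -0.014 for all genes. In Cx43 knockdown it went from 0.048 to -0.020, against 0.022 for all genes, with 46.5% of the members above 0 against 53.8%. Of the 5 members called in CDH2 knockdown, ZNF724 was still called after this correction, while ZNF587, ZNF430, ZNF551 and ZNF347 kept an adjusted p of 0.0204 to 0.0372 with log2 fold changes of 0.70, 0.65, 0.60 and 0.47, under the size asked for.

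Length and GC content were also crossed at the medians of the members without ZNF699, 4280 bases and 43.2%. Long members of low GC content had a median change of 0.32 in CDH2 knockdown, where other genes of the same kind had 0.24, and long members of high GC content 0.24 against 0.13. Short members of low GC content had 0.26 against 0.030, the widest gap of the 4, and short members of high GC content -0.029 against -0.12.

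**Figure D5:**
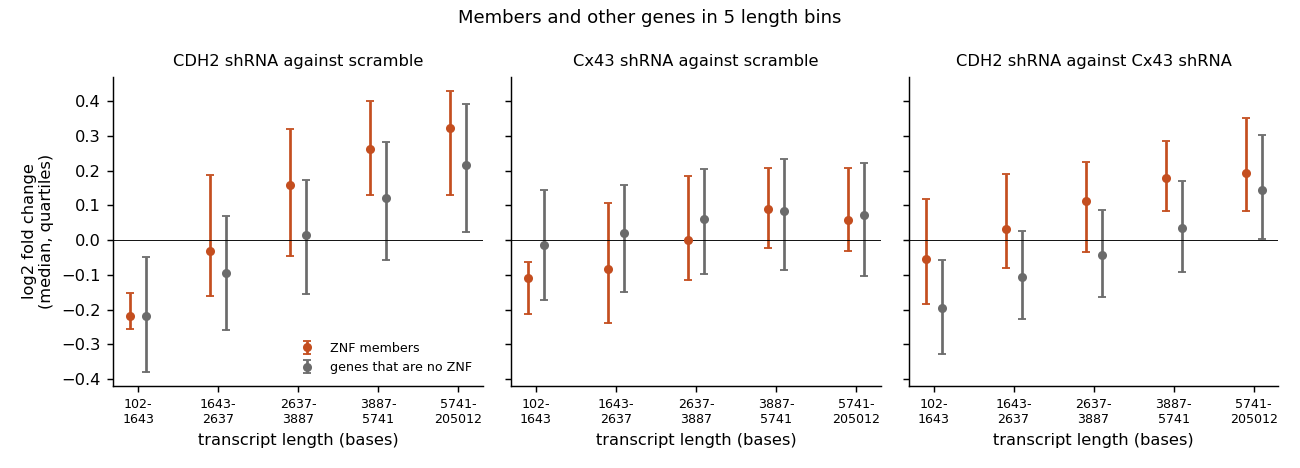
Median log2 fold change with quartiles (y axis) of the ZNF members (orange) and of genes that are no ZNF (grey) in 5 bins of transcript length in bases (x axis), each holding an equal number of all genes, for the 3 comparisons. In CDH2 shRNA against scramble both rise along the bins, from -0.22 to 0.32 for the members, and in the 3 longest bins the members are the higher.

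Single members at the ends of the length range vary around these medians. Of the 5 longest, ZNF26 (17697 bases) had 0.67 in CDH2 knockdown, ZNF431 (13894 bases) had 0.53, ZNF445 (18314 bases) had 0.33, ZNF207 (13740 bases) had 0.14 and ZNF704 (14386 bases) had 0.10, and ZNF26 and ZNF431 passed the adjusted p (adjusted p = 0.0189 and 0.0297). Of the 5 shortest, ZNF593 (638 bases) had -0.30, ZNF511 (1084 bases) had -0.066, ZNF580 (1156 bases) had -0.22, ZNF32 (1159 bases) had -0.25 and ZNF428 (1162 bases) had -0.48, all below 0, and none passed it (adjusted p from 0.0591 to 0.757). ZNF445, a KRAB protein, guards the silent state of imprinted genes, and ZNF593 is a ribosome assembly factor of few fingers.

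By role, the members of chromatin complexes had a median change of 0.28 over 15 genes in CDH2 knockdown, with 1 higher and 1 lower at an adjusted p under 0.05. Their median transcript length was 5982 bases, against 3228 over all genes, of which 7.29% were higher and 6.98% lower. ZNF219, which is also known as a partner of SOX9, fell by 0.53 on the log2 scale (SE 0.072, adjusted p = 0.0209), the largest fall among the 299 members. ZNF644, which recruits the methyltransferases G9a and GLP, rose by 0.41 (SE 0.094, adjusted p = 0.0446). ZNF518A had 0.48 (SE 0.17, adjusted p = 0.0973) and ZNF217, an oncogene amplified in breast cancer that sits in CoREST complexes, 0.28 (SE 0.18, adjusted p = 0.302). In Cx43 knockdown the same 15 genes had a median of 0.043, with 0 higher and 0 lower.

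The 10 ZNF genes that bind RNA or act at ribosomes had a median of 0.072 in CDH2 knockdown, with 1 higher and 1 lower. For this and the next lists, 7.29% of all genes were higher and 6.98% lower. ZNF326, which links RNA polymerase II to splicing, rose by 0.35 (SE 0.074, adjusted p = 0.0371), and ZNF385A, an RNA-binding partner of p53, had -0.40 (SE 0.088, adjusted p = 0.0398). ZNF106 had 0.43 (SE 0.11, adjusted p = 0.0523) and ZNF598, the ubiquitin ligase of collided ribosomes, 0.083 (SE 0.10, adjusted p = 0.570). Of 5 genes of cell division, 4 of them members, 2 rose, ZNF367 with 0.30 (SE 0.070, adjusted p = 0.0446) and ZNF655 with 0.38 (SE 0.085, adjusted p = 0.0408). ZNF207 had 0.14 (SE 0.074, adjusted p = 0.218) and ZNF143, a promoter-bound activator, 0.18 (SE 0.076, adjusted p = 0.141). In Cx43 knockdown ZNF367 had 0.44 (SE 0.083, adjusted p = 0.0714) and ZNF655 0.17 (SE 0.099, adjusted p = 0.371). Of 6 genes named in breast cancer, 0 rose and 1, ZNF703, was lower, with a median of -0.0018.

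The ZNF genes of retroelement control had a median of 0.31 in CDH2 knockdown over 10 genes, 2 of which, ZNF141 and ZNF649, are under the floor. There were 3 higher and 0 lower, where 7.29% and 6.98% of all genes were. The transcripts of the list had a median GC content of 40.3%, against 48.3% over all genes. ZNF649, a gene outside the members, went from a scramble mean of 2.37 ± 0.18 (SD, n = 3) to 3.47 ± 0.20, a change of 1.10 (SE 0.15, adjusted p = 0.0209), and ZNF587 and ZNF417, a related pair that binds the HERV-K primer site, had 0.91 and 0.37. For ZNF417, 29.3% of the windows also occur elsewhere, mainly in ZNF587, so their reads may be split between them. ZNF91, which represses SVA elements, had 0.38 (SE 0.11, adjusted p = 0.0644). In Cx43 knockdown the list had a median of 0.14 and 0 higher and 0 lower.

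The machinery that KRAB proteins recruit was looked at beside them. Of 24 genes, 3 rose and 0 fell in CDH2 knockdown, with a median of 0.12, and none passed the test in Cx43 knockdown, with a median of 0.12. Over all genes 7.29% rose and 6.98% fell in CDH2 knockdown. TRIM28, the corepressor, had a scramble mean of 8.48 and a log2 fold change of 0.059 (SE 0.13, adjusted p = 0.769) in CDH2 knockdown, and SETDB1 0.18 (SE 0.095, adjusted p = 0.219). UHRF1 and DNMT1, which copy DNA methylation after replication, rose by 0.61 (SE 0.13, adjusted p = 0.0371) and 0.53 (SE 0.11, adjusted p = 0.0354). The other was DNMT3B, a de novo methyltransferase, with 0.39 (SE 0.10, adjusted p = 0.0499).

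Other zinc finger families over the same floor were compared by their medians alone. In CDH2 knockdown 9 ZFP genes had 0.27, 32 ZBTB genes, which pair fingers with a BTB domain, 0.21, 10 ZSCAN genes 0.19, 5 ZKSCAN genes 0.14 and 10 KLF genes 0.043, beside 0.21 for the ZNF members. In Cx43 knockdown the ZBTB genes had 0.10, the ZFP genes 0.16 and the ZNF members 0.048. These families are small, and no test of their difference from the members was made.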

How the data were processed

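RNA was sequenced from 8 libraries of sorted MDA-MB-231 CSCs, 3 with scramble, 3 with CDH2 and 2 with Cx43 shRNA. As their methods state, the authors aligned reads with STAR (2.6.1 in the submitters' processing notes) to hg38 in Partek Flow, quantified genes by expectation maximization, removed 1 library of low quality, scaled to CPM, added 1, took logarithms, took out differences between sequencing runs with a shrunken log normal model and dropped low genes. The deposited log2 values were used as they stand. The gene annotation and the strandedness are not given in the sources used here. Removing a run effect before a test can make p-values too small.

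All 12939 named genes were fitted with limma 3.58.1 in R 4.3.3 (lmFit and eBayes, two-sided, Benjamini-Hochberg over all genes), with group and replicate number as terms. A line without a gene name was left out. The replicate number was kept as a block because the labels number the libraries alike in each group and the authors corrected by run: libraries of 1 number have deviations from their group means that add up to 0 to within 1e-04. The residuals of the fit vary in 2 directions while 3 residual degrees of freedom are counted, and the source of this difference was not tested. Depth is unknown, and the median SE of a log2 fold change was 0.11 in CDH2 and 0.12 in Cx43 knockdown. The fit was checked on simulated data of known answers. Their noise was drawn independently for each library before a replicate effect was taken out. The residuals of the real libraries vary in fewer directions, so this check does not reach their p-values. Transcript length, GC content, fingers (a C2H2 pattern) and the KRAB core came from canonical transcripts of GENCODE v44 (12251 genes matched by symbol), and promoters from RefSeq. Shared sequence was counted over 75-base windows of a transcript. The named genes were ZNF699, the members called in a knockdown, the 5 with the smallest p between knockdowns, those at the ends of level and length, the ZNF genes next to the floor and up to 4 of each list, to which ZNF622, ZNF747, ZNF410, ZNF799, ZNF770, ZNF814 and the members of a cluster were added after their values were seen. The members and lists were chosen with earlier results of these data known. Alternatives were other scalings, a pseudocount of 0.1, a filter on low genes, no block, other floors, other lengths, a length and GC correction and leaving out each library. The count of members past the adjusted p alone was put through them after the data had been seen.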

Additional observations from a re-analysis of the deposited data

Results flagged for a closer look

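ZNF45, ZNF570, ZNF432 and ZNF92 drew attention because every CDH2 library was above, and every Cx43 library below, the scramble library of the same replicate number. ZNF45 had log2 fold changes of 0.43, 0.59 and 0.65 in the CDH2 pairs and -0.062 and -0.42 in the Cx43 pairs, and 0.78 between the knockdowns (adjusted p = 0.124, limma). ZNF570 had log2 fold changes of 0.35, 0.22 and 0.33 in the CDH2 pairs and -0.39 and -0.29 in the Cx43 pairs, and 0.64 between the knockdowns (adjusted p = 0.115, limma). ZNF432 had log2 fold changes of 0.12, 0.16 and 0.23 in the CDH2 pairs and -0.38 and -0.54 in the Cx43 pairs, and 0.61 between the knockdowns (adjusted p = 0.115, limma). ZNF92 had log2 fold changes of 0.33, 0.41 and 0.29 in the CDH2 pairs and -0.14 and -0.15 in the Cx43 pairs, and 0.50 between the knockdowns (adjusted p = 0.121, limma). All 4 genes were named for their small unadjusted p in this same comparison, none passed the adjusted threshold, and the opposition of signs itself was not tested. The pattern was found in 19 of 299 members (6.35%) and 331 of 12939 genes (2.56%), and the reverse in 2 members (0.669%) and 524 genes (4.05%).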

How the results depend on the processing

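The number of members called in CDH2 knockdown, 5 in the report, was 1 with the length and GC correction beside the replicate block, 0 with only the groups compared, 2 with a floor of 4 in scramble, 59 without a fold threshold and 0 to 10 when a library was left out. The members higher at the adjusted p alone, 54 in the report, numbered 24 with the length and GC correction (8.03%, against 6.34% of all genes). They numbered 0 with only the groups compared, where 0 of all genes were higher too. With a floor of 4, 24 of 157 members were higher (15.3%, against 7.29% of all genes). With no replicate block there were 147 (49.2%, against 22.5% of all genes, with 23 lower). When a library was left out they numbered 0 to 118, against 0% to 20.9% of all genes. In Cx43 knockdown the 3 calls became 0 with the 75% of genes of the highest means, 5 with no replicate block, 9 with only the groups compared, 5 at an adjusted p under 0.1, 1 with a floor of 4 and 0 to 9 when a library was left out. Between the knockdowns 0 became 6 with no replicate block, 6 with only the groups compared and 0 to 7 when a library was left out. Fits with a library left out, or a group left out, hold fewer samples, and beyond that the cause was not tested. For calls that also ask for a fold, the other settings were counted over the members alone, without a share of all genes. The median of the members kept its sign in CDH2 knockdown (0.10 with the length and GC correction, 0.18 to 0.22 when a library was left out). Leaving out a Cx43 library cannot move this median. Between the knockdowns it was 0.10 with that correction, 0.17 with median centring, 0.16 with a pseudocount of 0.1, 0.17 with quantile normalization, 0.13 with a floor of 4 and 0.12 to 0.17 when a library was left out. In Cx43 knockdown it was -0.020 with the correction, 0.020 with quantile normalization and 0.030 to 0.072 when a library was left out. The rho with length in CDH2 knockdown lay between 0.31 and 0.46 when a library was left out. In Cx43 knockdown it was 0.15 with the union of exons, 0.14 with the longest transcript, -0.041 with coding length, 0.25 with the 3′ UTR and -0.0087 to 0.27 when a library was left out. With no replicate block the CDH2 calls were 6, ZNF770 being added, and the fits without the block were not counted for the KRAB, cluster and role groups. Without counts, what depth limits could not be judged.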

Other observations

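ZNF770, a member chosen here after its values were seen, was at 4.82, 4.48 and 5.15 in the scramble libraries, 5.80, 5.85 and 5.32 in the CDH2 knockdown libraries and 5.18 and 5.48 in the Cx43 knockdown libraries. Its log2 fold change of 0.84 (SE 0.23, adjusted p = 0.0637, limma) in CDH2 knockdown was above those of ZNF430, ZNF551 and ZNF347, and its libraries were spread more widely. The 205 members that share less than 5% of their 75-base windows with other transcripts had a median of 0.23 in CDH2 knockdown, with 43 higher and 3 lower at an adjusted p under 0.05. Over all genes 7.29% were higher and 6.98% lower.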
